A study of Rattus norvegicus with 6 samples.

Results

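Complement genes were followed in the lumbar spinal cord of rats 4 days after lidocaine was given into the fluid around the cord. The set held 36 genes for components, receptors and regulators of complement, taken by symbol. For 31 of them the array's annotation had a probe set (a transcript cluster) that named the gene alone, out of 20530 genes named in this way. The other 5, C2, C4a, C4b, Cfb and Cd59, were not analysed here. The animals were Sprague-Dawley rats in 2 groups of 3, and levels L2 to L6 of each rat's cord were run on an Affymetrix array of its own. One group had received 20 µL of 10% lidocaine intrathecally. Lidocaine is a sodium channel blocker used for local anaesthesia. The other group was untreated and not injected, so drug and injection cannot be told apart. On day 4 the rats were tested for behaviour and the tissue was then collected. Neither age nor sex is in the labels.

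Complement is a cascade of plasma and tissue proteins that tags cells, debris and synapses for removal. It starts from C1q with its proteases C1r and C1s (the classical pathway), from lectins with MASP proteases (the lectin pathway), or by self-activation of C3 with factors B and D (the alternative pathway). All of these cleave C3, and C5 to C9 then form a membrane pore. In the central nervous system microglia are known as the main source of C1q, astrocytes make C3 in injury, and most plasma complement comes from the liver.

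The sequences just before the annotated start are shown for C1qa and C1qb, next-door-but-one genes that rose together, for C3, on which the pathways converge, and for Fcnb, the lectin gene with the largest change. They are the 250 bases before the RefSeq start in GRCr8, read 5′ to 3′ on the gene's strand, which was the minus strand for all 4. Capitals mark matches to motifs that were searched on both strands.

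C1qa, chr5:154419934-154420183: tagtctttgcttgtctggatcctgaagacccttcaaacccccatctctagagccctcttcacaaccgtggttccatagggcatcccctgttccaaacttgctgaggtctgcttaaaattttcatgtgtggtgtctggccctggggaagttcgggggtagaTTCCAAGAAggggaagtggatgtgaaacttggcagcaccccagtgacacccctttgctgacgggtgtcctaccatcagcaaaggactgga
C1qb, chr5:154407828-154408077: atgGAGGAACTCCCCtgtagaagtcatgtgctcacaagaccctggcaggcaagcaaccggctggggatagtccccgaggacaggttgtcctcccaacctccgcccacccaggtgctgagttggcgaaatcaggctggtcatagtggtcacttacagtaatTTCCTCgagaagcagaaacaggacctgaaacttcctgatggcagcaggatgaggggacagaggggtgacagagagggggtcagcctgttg
C3, chr9:2201340-2201589: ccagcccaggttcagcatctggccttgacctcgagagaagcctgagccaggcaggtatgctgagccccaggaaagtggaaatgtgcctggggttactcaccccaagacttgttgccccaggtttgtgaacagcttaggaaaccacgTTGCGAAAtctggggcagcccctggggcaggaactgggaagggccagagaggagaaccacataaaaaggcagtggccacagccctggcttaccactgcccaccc
Fcnb, chr3:31800189-31800438: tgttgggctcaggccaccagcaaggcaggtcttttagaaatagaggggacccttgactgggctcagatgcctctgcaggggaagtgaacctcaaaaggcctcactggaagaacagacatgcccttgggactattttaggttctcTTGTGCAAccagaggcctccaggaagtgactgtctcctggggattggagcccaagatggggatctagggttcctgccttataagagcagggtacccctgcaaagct

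In C1qa the capitals are a match to the STAT motif TTCNNNGAA. The capitals of C1qb cover GAGGAA, the box bound by the myeloid factor PU.1, on both strands, the upstream one overlapping a match to the kappaB consensus. C3 and Fcnb each held a match to the C/EBP motif TTGCNNAA. Of 27457 RefSeq windows of this length, 23.2% held GAGGAA, 9.20% TTGCNNAA, 7.52% TTCNNNGAA, 7.99% the interferon regulatory factor core GAAANNGAA and 6.41% the kappaB consensus. Windows were found for 13 of the genes that rose, of which 4 held GAGGAA (C1qb, C1r, C5ar2 and Cfp), 4 TTGCNNAA (C1r, C3, C6 and Fcnb), 3 TTCNNNGAA (C1qa, C5ar2 and Vsig4), 1 the kappaB consensus and 0 GAAANNGAA. Of the 9 windows of other measured members, 1 held GAGGAA, 3 TTGCNNAA and 1 TTCNNNGAA. A match is a run of letters and not a binding site.

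Values are log2 RMA values, which compare a gene between arrays but not one gene with another. They correlated at 0.993 to 0.997 over the named genes between rats of a group and at 0.978 to 0.985 between groups. The median of the negative-control rows was 2.65 to 2.81 on the 6 arrays and their 95th percentile 5.79 to 6.06. All 12 spinal cord identity genes measured had group means above that median, among them the lumbar gene Hoxc10 at 6.33 ± 0.07 in controls (SD, n = 3). Of 7 forebrain identity genes measured, 2 (Emx2 and Neurod6) lay below it in both groups and the other 5 did not, so this median does not separate cord from forebrain genes. Of all genes 14.0% fell after lidocaine (limma, adjusted p under 0.05). Of the 12 identity genes 6 did, Hoxc10 among them, to 5.90 ± 0.15. The part of this in the complement results was not tested.

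The 5 classical pathway genes measured, C3, the anaphylatoxin receptors and, of the terminal genes, C6 and C7 rose in the treated cord. The terminal genes C5, C8a, C8b and C9 lay at the array's background in both groups. Of the 31 measured genes 18 rose (58.1%), against 9.7% of all genes, and 1 fell, against 14.0% of all genes (limma, adjusted p under 0.05). In 19 of the 31 (61.3%), all 3 lidocaine values lay above all 3 control values, as they did in 15.9% of all genes. The median log2 change was 0.63 over the 31 genes and -0.01 over all genes. With the arrays centred on their medians, 18 and 1 members were still called, beside 8.58% of all genes higher and 19.9% lower. In whole tissue a change in the number of cells of a type and a change in RNA per cell cannot be told apart.

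**Figure D1:**
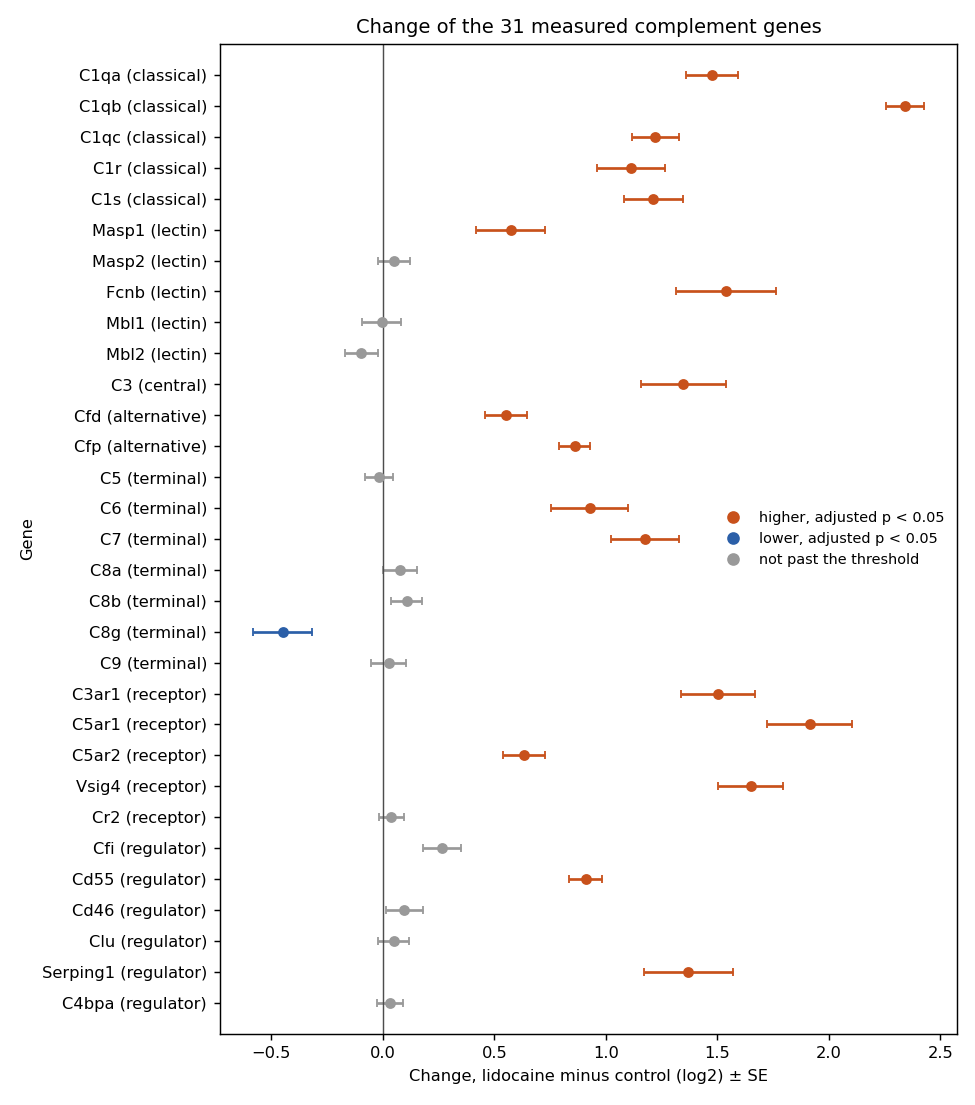
Change of each of the 31 measured complement genes, lidocaine minus control, in log2 units on the x axis, with the moderated standard error as bars (3 rats per group). The genes that rose lie between 0.55 for Cfd and 2.34 for C1qb, C8g is the gene that fell at -0.45, and the 12 others lie between -0.10 and 0.27.

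C1q is the recognition molecule of the classical pathway and is built from 3 chains encoded by C1qa, C1qb and C1qc, which lie side by side on chromosome 5. C1qb read 6.53, 6.80 and 6.63 in the control rats and 8.96, 9.09 and 8.93 in the lidocaine rats (log2). It had the largest change of the set, 2.34 ± 0.09 (log2, SE), or 5.07-fold (adjusted p = 2.6e-05, n = 3 per group). C1qa read 6.95, 6.60 and 6.70 in controls and 8.23, 8.39 and 8.05 after lidocaine, a rise of 2.78-fold (adjusted p = 0.000273). For C1qc the values were 5.35, 5.08 and 5.09 against 6.25, 6.38 and 6.56, 2.33-fold higher (adjusted p = 0.00042). In each of the 3 genes the groups were far apart, with every lidocaine value above the highest control.

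The sizes of these changes were compared within each array, and no pair passed the test. Within each array, C1qb minus C1qa went from -0.42, 0.19 and -0.07 in controls to 0.73, 0.69 and 0.87 after lidocaine, a shift of 0.86 with no overlap of the groups. C1qb minus C1qc shifted by 1.12, from a mean of 1.47 ± 0.27 to 2.60 ± 0.19 (SD, n = 3), also with no overlap. C1qa minus C1qc shifted by 0.26, and lidocaine rat 3, at 1.498, lay below the 3 controls. The exact two-sided permutation test over rats gave p = 0.1, 0.1 and 0.4 for the 3 pairs, where 0.1 is the smallest p that 3 against 3 allows, and 0.15, 0.15 and 0.4 after Benjamini-Hochberg adjustment. These are differences in measured response, and probe sets can differ in how steeply they follow the RNA.

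**Figure D2:**
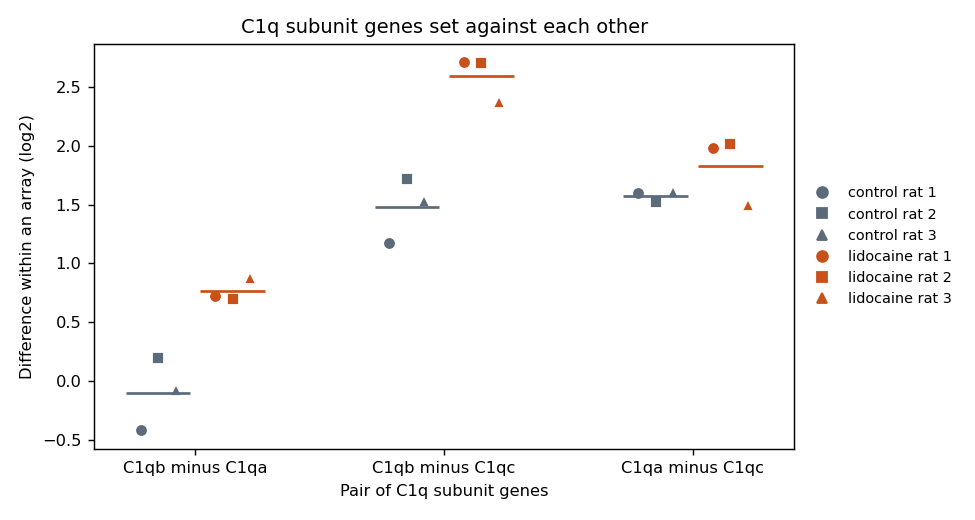
Differences between C1q subunit genes within each array (log2, y axis) for the 3 pairs on the x axis. Points are single rats and lines group means, and the lidocaine rats lie above the controls for both pairs with C1qb but not for C1qa minus C1qc.

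C1r and C1s, the proteases that C1q carries, are neighbours on chromosome 4 and changed to a like extent. C1r read 5.40, 5.79 and 5.74 in controls and 6.59, 6.61 and 7.06 after lidocaine, 2.16-fold higher (log2 change 1.11 ± 0.15, SE, adjusted p = 0.00282). C1s went from 4.77, 5.06 and 5.17 to 6.07, 6.11 and 6.45, 2.32-fold higher (adjusted p = 0.00108). Both were lowest in control rat 1 and highest in lidocaine rat 3. Serping1 encodes C1 inhibitor, which stops C1r, C1s and the MASP proteases. It read 6.86, 7.73 and 7.40 in controls and 8.67, 8.56 and 8.87 after lidocaine, a rise of 2.58-fold (adjusted p = 0.00368). Control rat 1 and lidocaine rat 3 were again the lowest and the highest, and the control rats differed widely among themselves.

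C3 read 5.06, 5.51 and 5.55 in the control rats and 7.04, 6.36 and 6.77 in the lidocaine rats. The rise was 2.55-fold (log2 change 1.35 ± 0.19, SE, adjusted p = 0.0032), and every lidocaine value was well above the highest control. The alternative pathway genes measured were Cfd, the protease factor D, and Cfp, properdin, which stabilises the C3 convertase. Cfd rose 1.47-fold, from 4.94, 4.70 and 4.71 to 5.18, 5.40 and 5.43 (adjusted p = 0.00681). Cfp moved from 4.84, 4.82 and 4.70 to 5.61, 5.73 and 5.60, 1.82-fold higher (adjusted p = 0.000323). The SD of Cfp was 0.08 in controls and 0.07 after lidocaine, small beside its log2 change of 0.86. Both group means of Cfd and Cfp lay under the 95th percentile of the negative controls, as did those of Masp1 and Cd55, given below.

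**Figure D3:**
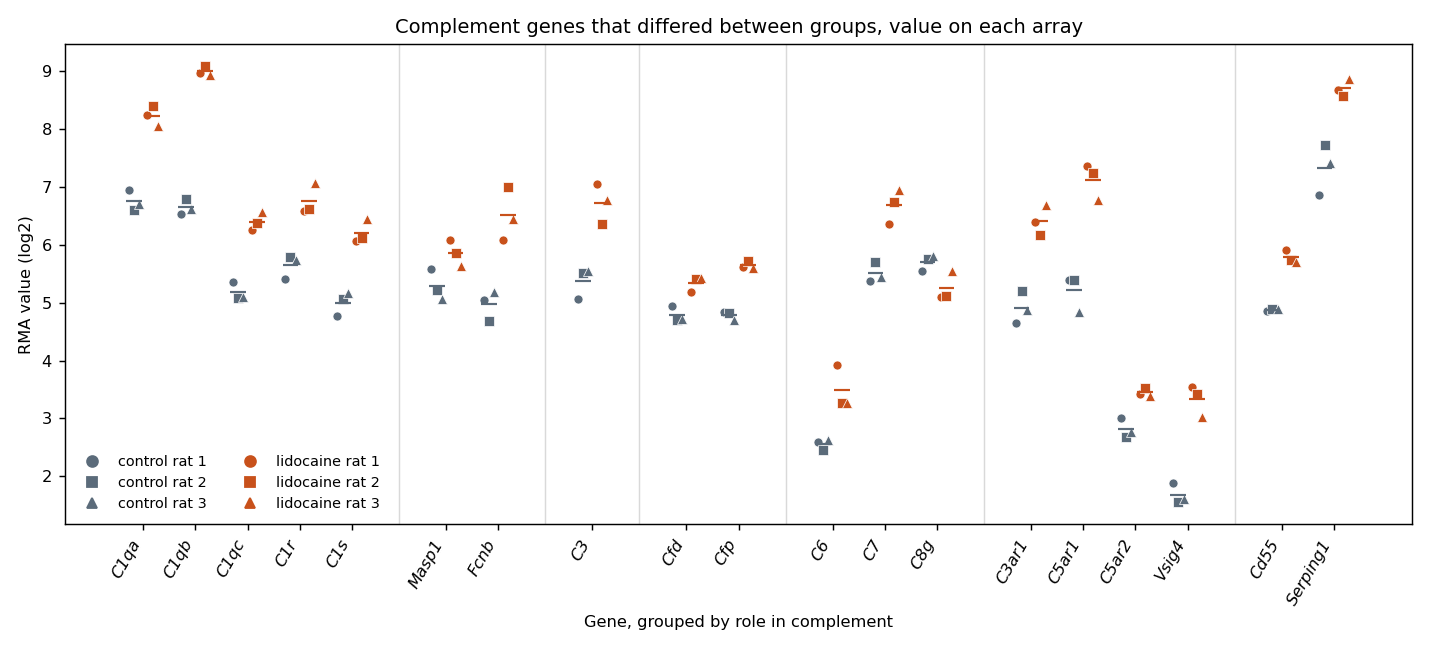
RMA values (log2, y axis) on each of the 6 arrays for the 19 complement genes that differed, grouped by role and separated by vertical lines. Grey points are control rats, orange points lidocaine rats, symbols give the rat number and short lines the group means; the groups are apart for every gene except C8g.

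The lectin pathway moved in part. Fcnb encodes ficolin-B, a recognition lectin of myeloid cells, and read 5.04, 4.69 and 5.18 in controls and 6.09, 6.997 and 6.45 after lidocaine. It rose 2.91-fold (log2 change 1.54 ± 0.22, SE, adjusted p = 0.00357), with lidocaine rat 2 the highest and rat 1 the lowest. Masp1, a protease of lectin complexes, read 5.58, 5.22 and 5.06 against 6.08, 5.86 and 5.63, 1.49-fold higher (adjusted p = 0.031). The lowest lidocaine value was just above the highest control, and Masp1 no longer passed when control rat 2, control rat 3, lidocaine rat 1 or lidocaine rat 2 was left out (adjusted p = 0.105, 0.103, 0.0802 and 0.0819). Neither the mannose-binding lectins Mbl1 and Mbl2 nor the protease Masp2 passed, at log2 changes of -0.01, -0.10 and 0.05 (adjusted p = 0.971, 0.412 and 0.669). Mbl2, a liver gene, lay below the negative-control median in both groups.

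Among terminal pathway genes the response was split. C7, which anchors the forming pore in the membrane, read 5.38, 5.70 and 5.44 in controls and 6.36, 6.73 and 6.95 after lidocaine, 2.26-fold higher (adjusted p = 0.00232). C6, which joins before C7, read 2.59, 2.45 and 2.63 against 3.93, 3.26 and 3.26. Its control mean lay below the negative-control median, so its rise is given as at least 1.71-fold (adjusted p = 0.00871), and lidocaine rat 1 stood above the other two. C6 and C7 lie near each other on chromosome 2, with 1 protein-coding gene between.

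C8g was the 1 gene of the 31 that fell. Its protein is the gamma chain of C8, a lipocalin bound to the pore-forming chains. It read 5.54, 5.75 and 5.81 in controls and 5.10, 5.11 and 5.54 after lidocaine, a log2 change of -0.45 ± 0.13 (SE, adjusted p = 0.0422). Lidocaine rat 3 reached the lowest control, so the groups touched. C8g no longer passed when any 1 of those 4 rats that Masp1 depended on was left out (adjusted p = 0.129, 0.137, 0.113 and 0.127), nor after quantile normalisation (adjusted p = 0.0631). A second transcript cluster, which named C8g together with Lcn12, was not used. C5, C8a, C8b and C9 lay below the negative-control median in both groups, with log2 changes of -0.02, 0.08, 0.11 and 0.03 that did not pass (adjusted p 0.331 to 0.87). At that level a change may not be detectable.

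The receptors that read out complement activity rose. C5ar1, the receptor for C5a on myeloid cells, read 5.39, 5.40 and 4.84 in controls and 7.36, 7.24 and 6.78 after lidocaine. That is 3.77-fold (log2 change 1.91 ± 0.19, SE, adjusted p = 0.000748), the second largest fitted change of the set. Its neighbour on chromosome 1, C5ar2, encodes a C5a receptor that does not couple to G proteins. It went from 3.00, 2.68 and 2.77 to 3.43, 3.53 and 3.40, 1.55-fold higher (adjusted p = 0.00373), close above the negative-control median in both groups.

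C3ar1, the receptor for C3a, read 4.66, 5.21 and 4.87 in controls and 6.39, 6.16 and 6.68 after lidocaine, 2.83-fold higher (adjusted p = 0.00114). Vsig4, a receptor of tissue macrophages that binds C3b and iC3b, read 1.88, 1.55 and 1.61 in controls, all below the negative-control median, and 3.54, 3.43 and 3.03 after lidocaine. The groups lay far apart, and since the controls were at background the rise is given as at least 1.54-fold (adjusted p = 0.000424). Cr2, the receptor of B cells and follicular dendritic cells, lay between 1.52 and 1.58 on all arrays and did not pass (adjusted p = 0.695).

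Of 6 regulator genes measured, 2 rose: Serping1, given above, and Cd55. Cd55 encodes decay-accelerating factor, a membrane protein that takes apart C3 convertases. It read 4.85, 4.89 and 4.89 in controls and 5.91, 5.74 and 5.70 after lidocaine, 1.88-fold higher (adjusted p = 0.0003), with the controls almost identical. Cfi, the protease that cuts C3b and C4b, read 2.50, 2.37 and 2.61 against 2.66, 2.74 and 2.88. All its lidocaine values were above all controls, but both group means were below the negative-control median and it did not pass (log2 change 0.27, adjusted p = 0.0616). Clu, clusterin, which binds the assembling pore, read 9.87, 9.87 and 9.80 in controls and 9.99, 9.87 and 9.82 after lidocaine. Its log2 change of 0.05 ± 0.07 (SE) did not pass (adjusted p = 0.673). Cd46 and C4bpa had log2 changes of 0.10 and 0.03 (adjusted p = 0.467 and 0.762), and C4bpa was below the negative-control median in both groups.

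C1qb, C1qc and C1qa follow each other with no other protein-coding gene between them, as do C1r and C1s, and every one rose. C5ar1 rose 3.77-fold and its neighbour C5ar2 1.55-fold. Cd55 rose while C4bpa, 1 protein-coding gene away, stayed at background, and Cr1l rose (given below) between Cd46 and Cr2, which did not pass.

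Of 30 further complement genes chosen for comparison, 21 were measured, with a median log2 change of 0.13. Of these 6 rose (9.7% of all genes did), 5 fell and 10 did not pass. The integrin chains of complement receptors 3 and 4 rose. Itgam, the CD11b chain, read 4.70, 4.78 and 4.61 in controls and 7.28, 6.86 and 6.48 after lidocaine, 4.51-fold higher (adjusted p = 0.000323). Itgax, the CD11c chain, went from 3.25, 3.29 and 3.17 to 4.21, 4.28 and 3.97, 1.88-fold higher (adjusted p = 0.000744). Itgb2 was not analysed here. Cr1l encodes Crry, the rodent membrane regulator of C3 convertases, and read 5.998, 6.22 and 6.10 against 6.60, 6.48 and 6.79, 1.43-fold higher (adjusted p = 0.00884).

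The 5 genes of this list that fell (14.0% of all genes did) were Susd4, Csmd3, Csmd1, Vtn and C1qbp. Susd4, a sushi-domain inhibitor of complement, read 7.17, 7.34 and 7.16 in controls and 6.60, 6.58 and 6.33 after lidocaine, 1.65-fold lower (log2 change -0.72 ± 0.09, SE, adjusted p = 0.00229). Csmd3 went from 5.60, 5.87 and 5.65 to 5.25, 5.12 and 4.81, 1.57-fold lower (adjusted p = 0.00918). Csmd1, whose large sushi-domain protein inhibits the classical pathway, was 1.30-fold lower (adjusted p = 0.0148), but did not pass when control rat 2 was left out (adjusted p = 0.0515). Csmd2 had a log2 change of -0.28 and did not pass (adjusted p = 0.0551), though it did without control rat 1 (adjusted p = 0.0217). In Susd4 and the 3 Csmd genes, grouped here after their values were seen, every lidocaine value lay below every control. The same held for 5052 of all 20530 genes. Of 9 neuron markers measured 8 fell, with a median log2 change of -0.46, and their summed linear level was 5967 to 6267 in controls and 4033 to 5015 after lidocaine. The part of neuron markers in the lower Susd4 and Csmd values was not tested.

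Vtn, vitronectin, an inhibitor of pore assembly that pericytes and leptomeningeal cells also make, fell from 7.25, 7.83 and 7.66 to 6.38, 6.504 and 6.94, 1.96-fold (adjusted p = 0.00853). The remaining calls of this list each depended on single rats. Ptx3, a pentraxin that binds C1q, rose 2.05-fold (adjusted p = 0.0177), with adjusted p = 0.071 leaving out control rat 2, 0.0639 leaving out control rat 3 and 0.0613 leaving out lidocaine rat 2. Cd93, a C-type lectin-like gene of endothelium and myeloid cells, rose 1.38-fold (adjusted p = 0.0204), with adjusted p = 0.0522 leaving out lidocaine rat 1 and 0.0532 leaving out rat 3. C1rl, a C1r-like protease, rose 1.24-fold (adjusted p = 0.0266), and leaving out any 1 of the 4 rats named for Masp1 gave an adjusted p of 0.0577 to 0.0984. C1qbp, a mostly mitochondrial protein named for binding C1q, was 1.18-fold lower (adjusted p = 0.0375), and leaving out any 1 of the 6 rats gave an adjusted p of 0.0538 to 0.115.

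**Figure D4:**
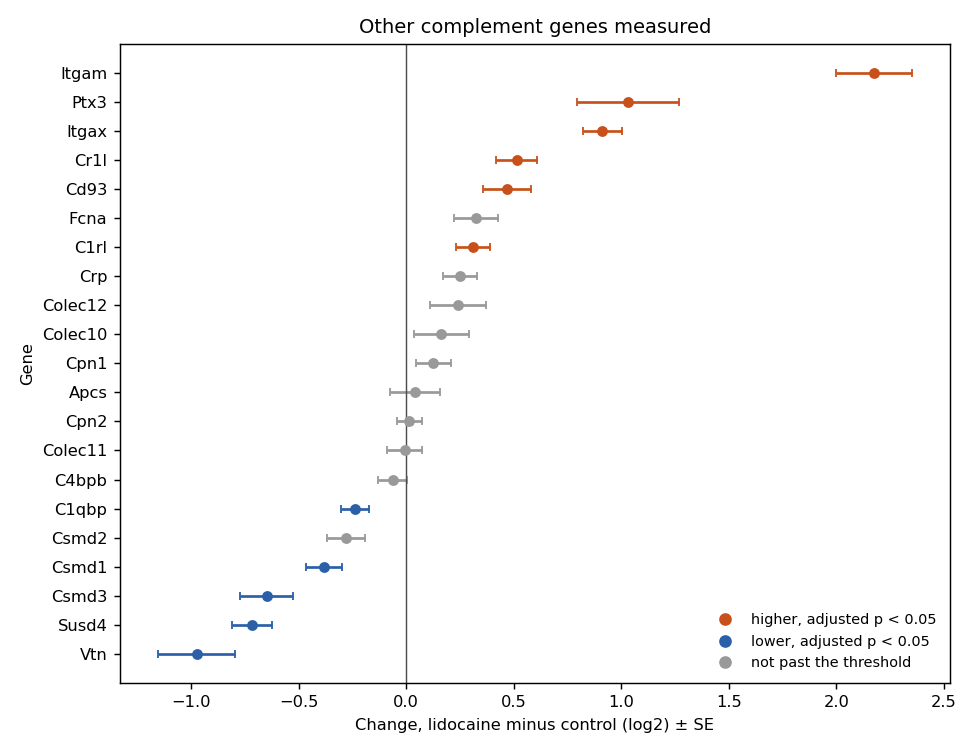
Change of the 21 measured genes of the further complement list, lidocaine minus control, in log2 units on the x axis with the moderated standard error (3 rats per group). Itgam is at the top at 2.17, and the lower end holds Vtn, Susd4, Csmd3 and Csmd1, between -0.97 and -0.38.

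Marker lists of cells that can express complement genes, chosen with earlier results of these data known, differed in their counts. All 16 macrophage and monocyte markers measured rose, against 9.7% of all genes. Their median log2 change was 1.43, and they had a summed linear level of 529 to 605 in controls and 1678 to 2033 after lidocaine. Fn1 and Vcan weighed most in that sum, with means of 7.18 and 6.37 in controls and 9.26 and 7.95 after lidocaine. Which cells these 2 came from was not tested. Lyz2, Vcan and Itgal had the smallest p, with log2 changes of 1.55, 1.58 and 1.48 (adjusted p = 3.56e-05, 5.59e-05 and 0.000116). Ms4a7 rose with both group means below the negative-control median. Of 11 microglia markers 6 rose and 5 did not pass, with a median of 0.47 and a summed level of 781 to 844 against 1218 to 1421. Tyrobp, Csf1r and Cx3cr1 had log2 changes of 1.81, 1.27 and 0.76. The 5 that did not pass were Gpr34, Siglech, Olfml3, Tmem119 and Selplg, at 0.47, 0.21, 0.19, 0.16 and -0.18. Siglech was below the negative-control median in both groups, and every Selplg lidocaine value lay below every control. P2ry12 and Trem2 rose but no longer passed when certain single rats were left out (highest adjusted p = 0.056 and 0.104). The log2 changes of C1qa, C1qb and C1qc, 1.48, 2.34 and 1.22, stand beside these mixed microglia marker values. The part of cell numbers in the complement rises was not tested.

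Of 12 neutrophil markers 8 rose (median 1.19, summed level 162 to 202 against 483 to 537), with the smallest p for S100a9, S100a8 and Mmp8, which had log2 changes of 2.26, 1.45 and 1.95, and Ltf was below the negative-control median in both groups. All 12 reactive astrocyte genes measured rose (median 1.42, summed level 1031 to 1344 against 3185 to 3671). Lcn2 was counted both in this list and among the neutrophil markers that rose. Of 7 general astrocyte markers 1 rose and 4 fell. Of 10 lymphocyte markers 2 rose, and Cd3e, Cd3g, Cd3d and Ms4a1 were below the negative-control median in both groups. In limma 0 of 10 liver protein genes passed (lowest adjusted p = 0.131, 1 at an unadjusted p under 0.05), though Fgg was called higher without lidocaine rat 3 (adjusted p = 0.0185). Of the 10, 6, Fgg, Alb and Fgb included, lay below that median in both groups. Likewise 0 of 5 erythrocyte genes passed (lowest adjusted p = 0.114, 1 at an unadjusted p under 0.05), though Alas2, Hba-a1 and Hbb were called lower when lidocaine rat 3 was left out (lowest adjusted p = 0.001). Their summed level was 1542 to 1879 in controls and 943 to 1922 after lidocaine, and Hba-a1 made up most of it. Of 7 oligodendrocyte markers 4 fell, and of 8 endothelial markers 1 rose and 1 fell. Of all genes 9.7% rose and 14.0% fell.

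Single rats differed in which complement genes stood highest. Among the 18 genes that rose, lidocaine rat 1 was highest for 6, rat 2 for 5 and rat 3 for 7, and rat 3 was also the lowest for 8. Rat 3 was highest for C1r, C1s, C7, Serping1, C3ar1, C1qc and Cfd, and lowest for C5ar1, Vsig4, Masp1, Cd55 and C1qa among others. C5ar1 stood 2.15, 2.03 and 1.57 above the control mean in lidocaine rats 1, 2 and 3, and C1r 0.94, 0.97 and 1.42. The mean deviation over all 31 genes was 0.71, 0.73 and 0.73 in these rats.

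The mean of the fibroblast markers of leptomeninges and vessels was lowest among controls in rat 1 and highest among lidocaine rats in rat 3. This order also held for C1r, C1s, C7, C3ar1 and Serping1, for the mean of macrophage and monocyte markers and for that of erythrocyte genes. For macrophage and monocyte markers, lidocaine rats 2 and 3 were nearly equal. Within the erythrocyte list, Alas2 and Slc4a1 were lowest among controls in rat 3 and in rat 2. Within the fibroblast list, Pdgfra, Igf2 and Slc22a6 were instead highest among controls in rat 1 and not highest in lidocaine rat 3. The fibroblast markers' mean deviation from the control mean was -0.21, 0.11 and 0.10 in control rats 1, 2 and 3 and -0.32, -0.18 and 0.25 in the lidocaine rats. For macrophage and monocyte markers it was -0.08, 0.10 and -0.02 in controls and 1.338, 1.426 and 1.43 after lidocaine. For erythrocyte genes it was -0.04, 0.05 and -0.01 in controls and -0.67, -0.36 and 0.34 after lidocaine. Of the 12 fibroblast markers measured, Vtn included, 2 rose, 3 fell and 7 did not pass. Their median log2 change was -0.01 and their summed level 1679 to 2247 against 2208 to 3022. Dcn, the brightest of them and 1 of the 2 that rose, weighed most in that sum, with means of 9.44 and 10.16. Neutrophil markers stood 0.97, 1.27 and 1.10 above the control mean, and reactive astrocyte genes 1.74, 1.70 and 1.40. Both means joined unlike genes. Ngp stood at -1.04, 0.23 and 1.83 and Camp at -0.53, 0.25 and 1.17, and neither passed. Mpo and Elane also climbed from lidocaine rat 1 to rat 3, while the other neutrophil markers were lowest in rat 3. Serpina3n stood at 5.14, 4.67 and 2.11. Timp1, Osmr, Cp, Lcn2, Steap4 and Hspb1 were also lowest in rat 3, and Vim, Cd44 and Aspg highest. The part of any of these in the differences between rats was not tested.

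**Figure D5:**
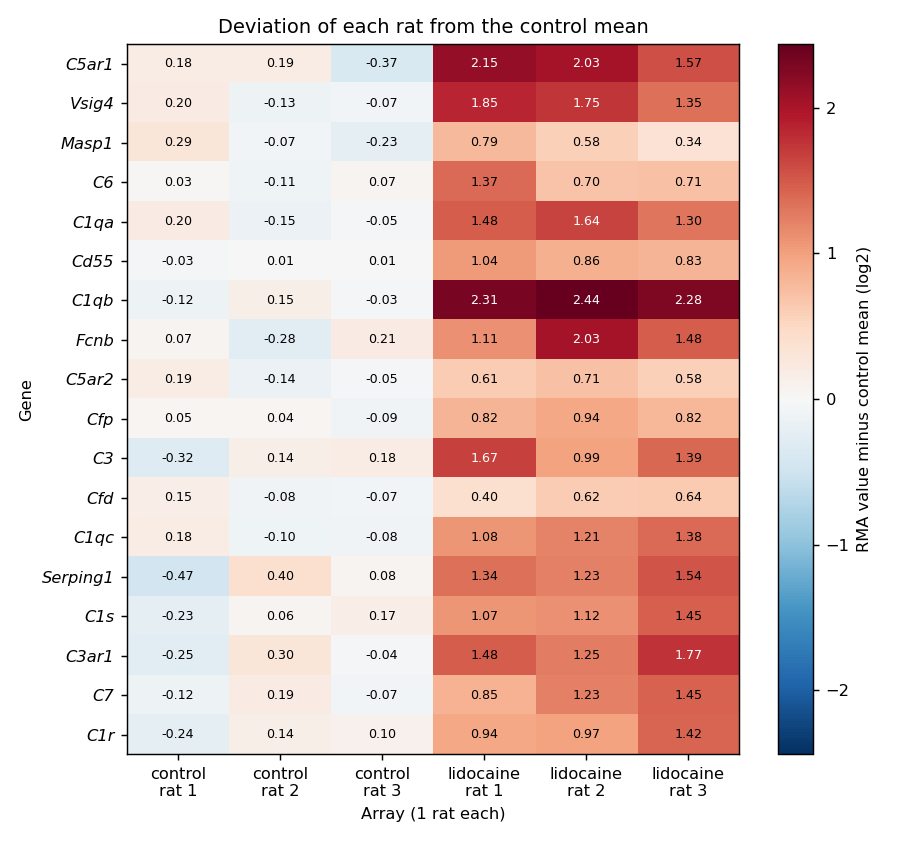
Deviation of each rat (columns) from the control mean for the 18 complement genes that rose (rows), in log2 units as colour and printed value. Rows run from genes lower in lidocaine rat 3 than in rats 1 and 2, such as C5ar1 and Vsig4, to genes higher in it, such as C7 and C1r, and the 3 lidocaine columns are positive for every gene.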

How the data were processed

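RNA (150 ng per sample) from 3 control and 3 lidocaine rats was hybridised to 1 array each. The authors deposited log2 values summarised per transcript cluster by RMA, per the submitters' processing notes; RMA equalises probe distributions between arrays and can understate changes of dim genes. The array model and genome build: not given in the sources used here. The table held 65527 rows. Clusters naming exactly 1 gene in the platform annotation (21560) were kept, with the brightest per gene (20530 genes); RefSeq GRCr8 gave current symbols, chromosome order and sequences. The groups were set against each other by lmFit and eBayes (limma 3.58.1, R 4.3.3) over all genes with Benjamini-Hochberg adjustment at 0.05. Folds are 2 to the power of the log2 difference. By a rule set after values were seen, a group mean below the mean of its arrays' negative-control medians is called background, and its fold is a lower bound against the higher of that median and the gene's own value on each array, averaged. A list's summed level adds 2 to the power of each value.

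Members, roles and lists were chosen with earlier results of these data known. All members are named. From other lists come up to 10 called genes or, for markers, up to 3 genes by smallest p, plus Itgam, Itgax, Itgb2 and Cr1l. Others (C1qbp, Csmd2, markers at background and further genes of the marker lists) were chosen after their values were seen. Nothing in the labels says that numbers pair rats, and same-numbered rats' deviations correlated at -0.06, -0.24 and 0.14. On simulated arrays of 20530 genes with independent noise, 100 genes were shifted by 1 and 100 by 2 (log2). The fit recovered 92% and 99% of them, with 10 calls among unshifted genes. In the data 4867 genes were called, far more than were shifted, so these shares need not hold for the data. Alternatives were leaving out each rat, array scaling, the choice of cluster, a filter on dim genes, the variance model and a replicate block.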

Additional observations from a re-analysis of the deposited data

How the results depend on the processing

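The 18 rises stood at 17 or 18 in every alternative that kept the dim genes, as did the number in the fit with the replicate block (18 rises, 1 fall, 4005 genes in all). Leaving out 1 rat gave 0 to 1 members lower and 2754 to 4335 genes called in all, the lowest without control rat 2, and quantile normalisation gave 0 members lower. Leaving out genes below the 95th percentile of the negative controls left 8 members, of which 7 rose and 0 fell. Fewer genes were tested there, 4996 in all, and 2556 of them were called. Of those tested, 14.05% were higher and 37.11% lower. Leaving out genes below the negative-control median left 22 members, of which 17 rose and 1 fell. Of the 15598 genes tested there, 12.66% were higher and 19.8% lower. Of 402 recomputed member values 393 kept call and direction, 9 lost the call, all of Masp1 or C8g, 0 gained one and 0 reversed. Some of these values could not move. Every measured member except Mbl2 had only 1 cluster naming it alone, so the choice of cluster repeated its values. Members removed by a filter on dim genes were not recomputed there and could not lose a call. The C1q differences kept their sign in every alternative run for them. Both group means lay under the 95th percentile of the negative controls for 19 of 31 members. Of these, 7 were called higher (Masp1, Cfd, Cfp, C6, C5ar2, Vsig4 and Cd55) and C8g lower. Signal over background limits what can be said of these 19. Only 3 arrays per group limit the precision, and the samples come from 1 time point.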
